A study of Mus musculus with 12 samples.

Results

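Collagen and laminin chains, the subunits of the fibrils and basement membranes of tissue, were followed in mouse liver during the first 6 h after an injection of concanavalin A (ConA). Members were all genes whose only symbol on the array was that of a collagen alpha chain or of a laminin alpha, beta or gamma chain. They numbered 52 of 18193 genes measured, 42 collagen and 10 laminin chains, and were read by 101 probe sets. Each gene was represented by its brightest probe set over the 12 arrays. The rule for members read symbols and no change with time, but it was set with earlier results of these data known.

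ConA is a plant lectin that activates T cells and provokes an acute immune hepatitis in mice. Male Balb/c mice of 8 to 10 weeks were given 20 mg/kg ConA in the tail vein, and whole liver was taken at 1 h, 3 h or 6 h, with 3 arrays per time. The 3 control arrays stood for 0 h. Their labels call them untreated, whereas the methods name an injection of PBS as the negative control. Controls were taken at 0 h alone, so an effect of ConA and an effect of the hours elapsed since 0 h cannot be told apart.

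Fibrillar collagens such as types I, III and V form the banded fibers of connective tissue. Type IV collagen and the laminins are the main networks of basement membranes, and type VI collagen forms beaded filaments beside cells. In the liver most fibrillar collagen comes from hepatic stellate cells and portal fibroblasts, and the perisinusoidal space holds only a loose matrix in health. Collagen genes are best known in this tissue for their rise in chronic injury, when stellate cells become myofibroblasts.

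Values below are signals of the deposited table on a linear scale, and changes are differences of log2 signal with their standard error (SE) from limma, with p-values adjusted by Benjamini-Hochberg over all 18193 genes. A gene was called higher or lower at an adjusted p under 0.05. A floor of 3.04, which is the 20th percentile of all values, was applied before log2 was taken. Of the members, 29 had no array at the floor and 23 had between 1 and 11. Median signals of the arrays lay between 13.7 and 20.4 and were lowest at 3 h, when the median gene was 0.21 lower than at 0 h on the log2 scale, against 0.08 higher at 1 h and 0.02 higher at 6 h. The labels number replicates and speak of liver of each mouse, but do not say that each array is 1 mouse, and the p-values measure the spread between these samples, which may be technical.

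At 6 h more chains were lower than higher. Of 52 chains, 10 were lower than in control (12.7% of all genes were) and 3 were higher (15.4% of all genes were), while 39 did not pass. The fallers were Col1a1, Col1a2, Col3a1, Col5a1 and Col5a3 of the fibrillar class, Col4a5, Col6a3, Col14a1, Col15a1 and the laminin chain Lamb1. The risers were Col4a1, Col4a2 and Col20a1. The changes of the 52 chains ran from -1.39 to 2.16 with a median of -0.22, against 0.02 over all genes. Without control replicate 3, or without the 6 h replicate 3, the fallers numbered 6.

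Few chains were called at the earlier times, and at 1 h few of all genes were. At 1 h, 1 chain was higher, Col4a3 (1.5% of all genes were), and none was lower by limma (0.148% of all genes were), with 1 lower at an unadjusted p under 0.05 and 1 called without control replicate 2. At 3 h, 2 were higher, Col4a1 and Col4a3 (5.15% of all genes), and 1 was lower, Lamb1 (14.7% of all genes). With quantile normalization or with each array centred on its median, 4 chains were higher at 3 h, Col13a1, Col4a1, Col4a2 and Col4a3, and none was lower. The chains lower at 3 h numbered 0 without control replicate 2 or 3 h replicate 2, and 2 without control replicate 3 or 6 h replicates 1 or 2. The same scalings changed the balance of all genes at 3 h, with 7.96% higher and 9.03% lower after quantile normalization, and 8.36% higher and 6.88% lower after centring. At 6 h all genes stood at 14.3% higher and 17.7% lower after quantile normalization and at 12.8% higher and 17.8% lower after centring. An F test over the 3 times called 14 of 52 chains, and 38% of all genes. The F test called 8 chains without the 6 h replicate 1 or without the 6 h replicate 3, and 9 without the 1 h replicate 2.

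**Figure D1:**
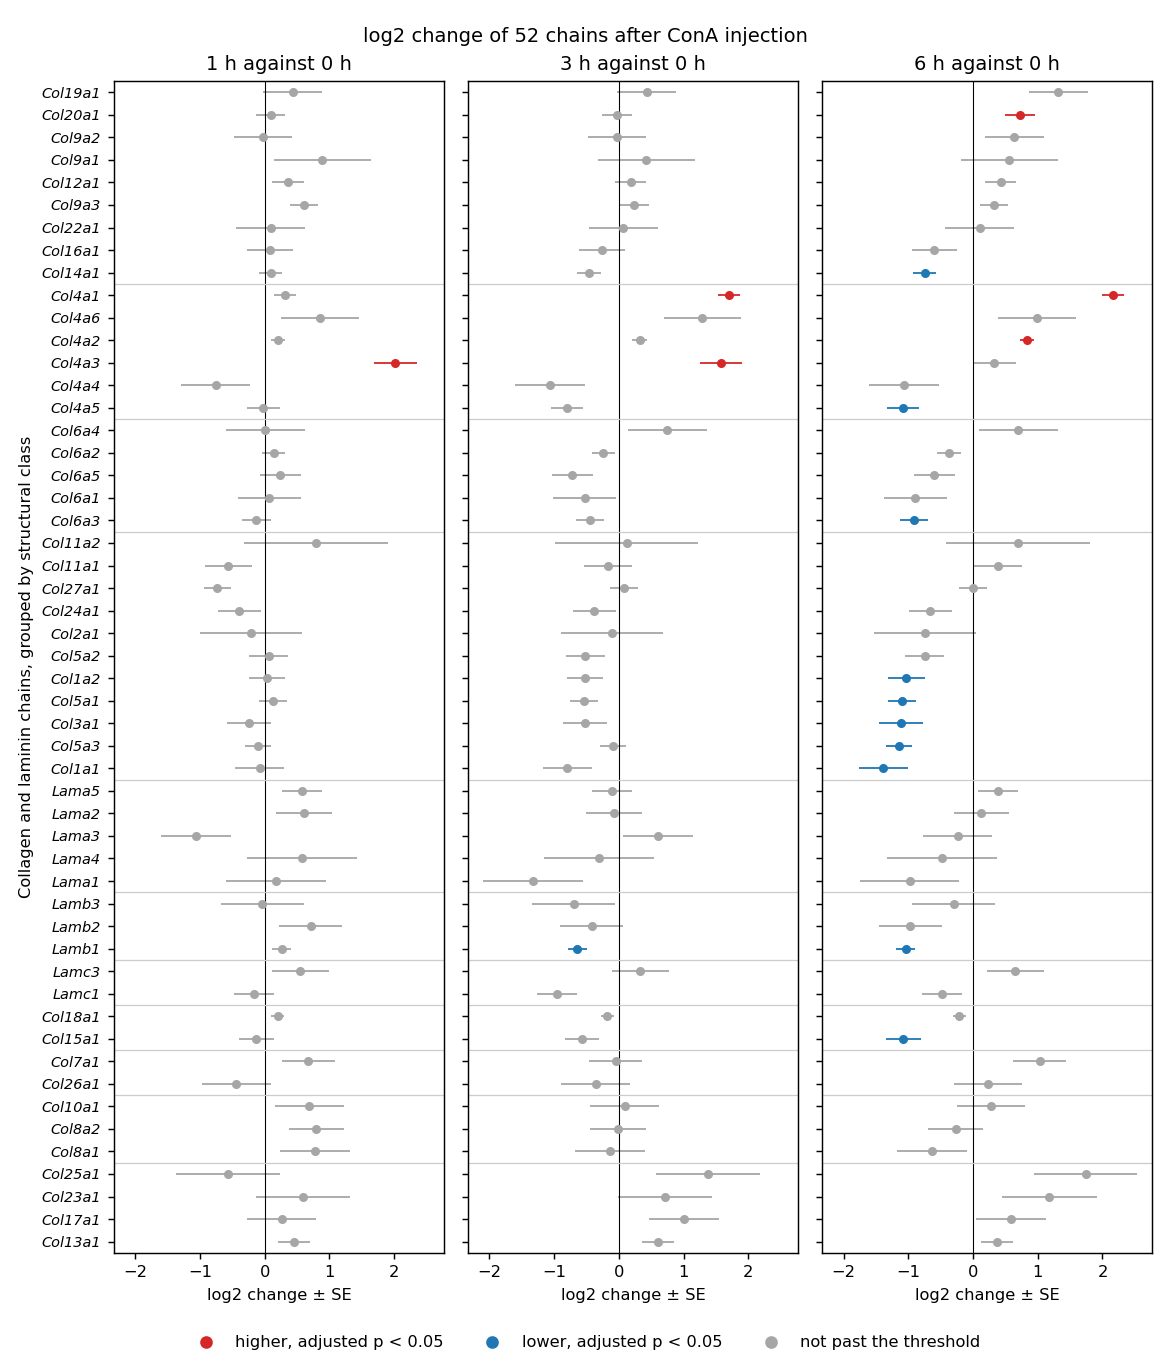
Log2 change with its SE for each of the 52 chains at each of the 3 times against 0 h (x axis), with chains grouped by structural class down the page (n = 3 arrays per time). Red points passed as higher and blue points as lower at adjusted p under 0.05. Most colored points are at 6 h, where 10 are blue and 3 are red.

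The collagen IV chains moved in different directions. These 6 chains pair into 3 networks, of which the one of alpha 1 and alpha 2 chains is found in nearly all basement membranes. The other 4 chains belong to networks best known from kidney, lung, eye and smooth muscle.

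Col4a1, the alpha 1 chain, had signals of 326, 352 and 328 in control, 482, 481 and 310 after 1 h, 1200, 993 and 1090 after 3 h and 1390, 1620 and 1490 after 6 h. All 6 arrays of 3 h and 6 h were above every array of 0 h and 1 h. The change was 0.31 at 1 h (SE 0.17, adjusted p = 0.56), 1.70 at 3 h (SE 0.17, adjusted p = 1.7e-04) and 2.16 at 6 h (SE 0.17, adjusted p = 2.5e-05), or 4.47-fold at 6 h. The main step came between 1 h and 3 h, where the change was 1.39 (SE 0.17, adjusted p = 8.9e-04). The other Col4a1 probe set was also called, at 1.84 at 3 h and 2.41 at 6 h. Relative to the median gene, Col4a1 was 1.92 higher at 3 h.

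Col4a2, the alpha 2 chain that assembles with alpha 1, had 178, 188 and 198 in control, 253, 192 and 211 after 1 h, 232, 217 and 257 after 3 h and 339, 329 and 331 after 6 h. The 6 h arrays lay close together and above all the others. Its change was 0.32 at 3 h (SE 0.11, adjusted p = 0.074) and 0.83 at 6 h (SE 0.11, adjusted p = 5.4e-04), a 1.77-fold rise. From 3 h to 6 h it changed by 0.51 (SE 0.11, adjusted p = 0.011), a call that was not made with either of the other scalings.

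The difference between Col4a1 and Col4a2 within each array, in log2 signal, averaged 0.94 ± 0.38 at 1 h, 2.22 ± 0.15 at 3 h and 2.17 ± 0.13 at 6 h, against 0.84 ± 0.09 at 0 h (SD, n = 3 each). Against 0 h it was higher by 1.38 at 3 h and by 1.33 at 6 h, with no overlap of arrays. A two-sided exact permutation test gave p = 0.1 for each, which is the smallest that 3 against 3 arrays allow (0.15 adjusted over 3 tests), and p = 0.7 at 1 h. The ratio shows unequal change of the 2 signals and gives no ratio of the chains themselves.

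The 2 genes lie head to head on mouse chromosome 8, and in the RefSeq annotation of GRCm38.p6 their first transcripts overlap by 22 bases on opposite strands. A 30-base window just before the Col4a2 start is shown because the 2 genes share this stretch near their starts and both rose. It lies within the Col4a1 transcript, which runs the other way, and its CCAAT box begins 32 bases before the Col4a2 start. The window is chr8:11312770-11312799, plus strand, 5′ to 3′, with the CCAAT box in capitals.
Col4a1/Col4a2: tccCCAATttgttggcgctgccccctcccc
The CCAAT letters, searched on both strands in the 250 bases before each start, were in 33.8% of 32851 RefSeq promoters. They were found in 14 of the 38 chains that had a promoter in the table. A match describes these letters alone.

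Col4a3, one of the chains restricted to specialized basement membranes, was dim. Its signals were 0.709, 5.91 and 1.53 in control, 14.6, 14.9 and 16.8 after 1 h, 9.57, 12.5 and 12.1 after 3 h and 6.97, 1.14 and 5.17 after 6 h. The 1 h and 3 h arrays did not overlap those of 0 h or 6 h, and 3 arrays of the 12 were at the floor. Changes were 2.02 at 1 h (SE 0.33, adjusted p = 0.015), 1.58 at 3 h (SE 0.33, adjusted p = 0.0097) and 0.33 at 6 h (SE 0.33, adjusted p = 0.53), and between 3 h and 6 h it fell by 1.24 (SE 0.33, adjusted p = 0.024). Its other probe set was not called at any time, with 0.64 at 1 h and -0.77 at 3 h. The 1 h call was lost without control replicate 1, control replicate 3, 1 h replicate 1 or 1 h replicate 2, at adjusted p of 0.053 to 0.065 in limma. The call between 3 h and 6 h was lost without 3 h replicates 2 or 3 or 6 h replicates 2 or 3, and with log2(signal + 1), the median over probe sets, the compared groups alone or the replicate number as a block.

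Col4a5, the alpha 5 chain, fell at 6 h by its brighter probe set. It had 75.4, 55.3 and 59.2 in control, 61.3, 76.7 and 50.7 after 1 h, 37.5, 39.8 and 31.2 after 3 h and 22.8, 43.6 and 26.1 after 6 h. Both late groups lay below all control arrays. The change was -0.80 at 3 h (SE 0.25, adjusted p = 0.054) and -1.08 at 6 h (SE 0.25, adjusted p = 0.011). Its second probe set, dimmer but above the floor on all arrays, was not called, at -0.01 at 3 h and -0.40 at 6 h (SE 0.34, adjusted p = 0.50). The 6 h call was lost with the median over probe sets (adjusted p = 0.088) and with the compared groups alone (0.052). Col4a4 and Col4a6 did not pass at 6 h, at -1.07 (SE 0.54, adjusted p = 0.19) and 0.99 (SE 0.60, adjusted p = 0.28). In both chains the arrays overlapped between 0 h and 6 h.

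**Figure D2:**
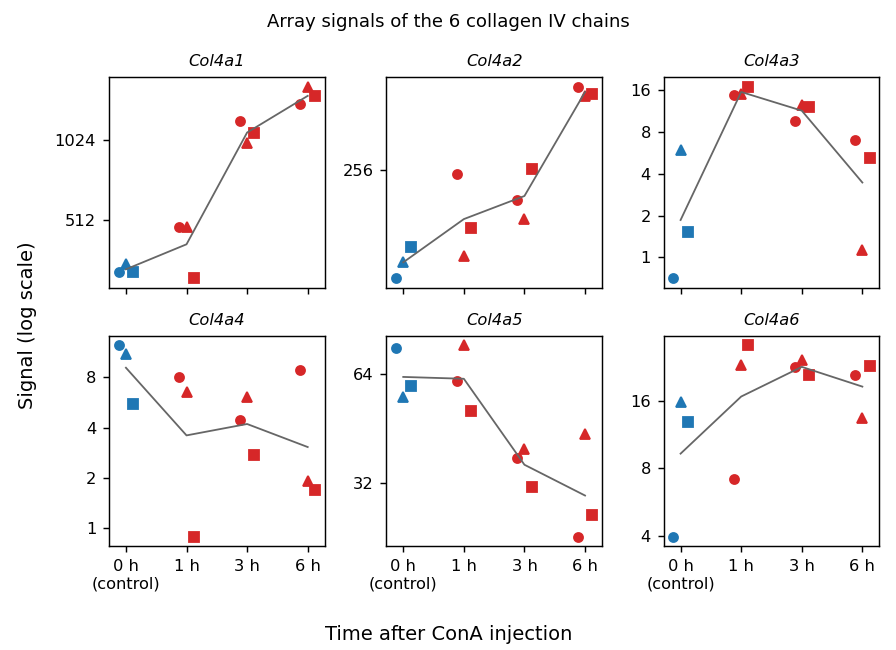
Signal (y axis, log scale) of the 6 collagen IV chains on each array at 0 h, 1 h, 3 h and 6 h (x axis). Circles, triangles and squares are replicates 1, 2 and 3, blue marks control and red ConA, and the line joins geometric means of 3 arrays. Col4a1 and Col4a2 end above all control arrays, Col4a5 ends below them, and Col4a3 is highest at 1 h.

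The fibrillar class held 5 of the 10 chains that fell at 6 h. Of its 11 chains, 5 were lower, none was higher by limma (0 also at an unadjusted p under 0.05), and 9 had a negative change, with a class median of -0.75. Over all genes 12.7% were lower and 15.4% higher at 6 h. The same 9 of 11 count held with quantile normalization and with centring, where 6 were called lower. At 3 h none was called, and the median was -0.38, with 1 lower at an unadjusted p under 0.05.

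Type I collagen is a trimer of 2 alpha 1 chains and 1 alpha 2 chain. Col1a1 had 121, 71.4 and 94.3 in control, 98.6, 114 and 61 after 1 h, 89.1, 55.9 and 31.2 after 3 h and 36.6, 37.9 and 33 after 6 h. Col1a2 had 245, 177 and 201 in control, 227, 264 and 156 after 1 h, 177, 179 and 92.9 after 3 h and 103, 108 and 92.2 after 6 h. For both chains the 6 h arrays lay tightly together below all control arrays, while the 3 h arrays were spread widely, with replicate 3 near the 6 h values. At 6 h Col1a1 fell by 1.39 log2 units (SE 0.38, adjusted p = 0.021), or 2.61-fold, and Col1a2 fell by 1.03 log2 units (SE 0.28, adjusted p = 0.021), or 2.05-fold. A dimmer probe set of each gene was also called, at -1.31 for Col1a1 and -2.3 for Col1a2.

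Col3a1, the homotrimer of type III collagen that forms reticular fibers, had 992, 820 and 860 in control, 875, 1030 and 468 after 1 h, 736, 738 and 431 after 3 h and 585, 365 and 320 after 6 h. All 3 h and 6 h arrays were below the control arrays. The change at 6 h was -1.12 (SE 0.34, adjusted p = 0.037), among the called chains closest to the threshold. The F test did not call Col3a1 (adjusted p = 0.10). Its second probe set changed by -2.07 and was called.

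The type V chains regulate the diameter of type I fibrils. Col5a1 had 54.6, 55.2 and 63.3 in control, 76.8, 62.1 and 52.2 after 1 h, 51.6, 27.8 and 43 after 3 h and 25.7, 29.7 and 25.5 after 6 h, and changed by -1.10 at 6 h (SE 0.22, adjusted p = 0.0050). Col5a3 had 92.1, 160 and 115 in control, 122, 96.3 and 115 after 1 h, 111, 113 and 111 after 3 h and 53.3, 64.5 and 46.2 after 6 h. Unlike the other fallers, Col5a3 stayed among the control arrays up to 3 h and then dropped by 1.05 on the log2 scale from 3 h to 6 h (SE 0.20, adjusted p = 0.0058), with a change of -1.14 against 0 h (SE 0.20, adjusted p = 0.0023). Col5a2 had 49.2, 46.7 and 33.5 at 6 h, against 86.5, 62.5 and 68.3 at 0 h, and its change of -0.75 did not pass (SE 0.30, adjusted p = 0.096), although its arrays did not overlap. Col5a2 was called lower with both other scalings.

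The remaining fibrillar chains differed from these. Col27a1, a long fibrillar chain of cartilage, had 245, 146 and 247 in control, 138, 112 and 127 after 1 h, 200, 264 and 197 after 3 h and 195, 226 and 198 after 6 h. It was low at 1 h alone, at -0.73 against 0 h (SE 0.21, adjusted p = 0.18), and 0.80 higher at 3 h than at 1 h (SE 0.21, adjusted p = 0.025), a call lost without 1 h replicates 1 or 2 or 3 h replicate 2. Col2a1, Col11a1, Col11a2 and Col24a1 were dim, with 1 to 7 arrays at the floor, and were not called at any time.

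Calls in this class depended on single arrays. The Col1a1 call was lost without control replicate 1, control replicate 3 or any 1 of the 6 h replicates, and Col1a2 without control replicates 1 or 3 or 6 h replicates 1 or 3. Col3a1 was lost without any 1 of the control replicates or without 6 h replicates 2 or 3. Adjusted p from limma in these fits lay between 0.050 and 0.12. Col5a1 and Col5a3 kept their calls at 6 h in all 24 recomputations. A dimmer Col5a1 probe set was also called at 6 h, at -1.44. Another, at the floor on 3 arrays, was not called, at 0.03 (SE 0.91). The only other Col5a3 probe set was at the floor on 11 arrays and was not called, so the Col5a3 call rested on 1 probe set.

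Among the 10 chains lower at 6 h, replicate 3 at 1 h was the lowest of its group in 9, replicate 3 at 3 h in 6 and replicate 3 at 6 h in 7, whereas replicate 2 at 6 h was the highest in 8. In control, replicate 1 was the lowest in 5, replicate 2 in 4 and replicate 3 in 1. Median signals of whole arrays were also lowest of their group in replicate 3 at 1 h (17.4) and at 3 h (13.7). In control the median signal was lowest in replicate 3 as well (15.6), although that array was the lowest in only 1 of these chains. At 6 h they were highest in replicate 2 (20.4), with 17.9 in replicate 3 and 17.8 in replicate 1. The part of whole-array brightness in this order was not tested.

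Separation of the arrays, all 3 of a time beyond all 3 of the other, was counted as well. At 6 h, 12 chains lay below 0 h (18.5% of all genes) and 7 above it (22.1%). At 3 h, 8 chains lay below 0 h (28.7% of all genes) and 4 above it (8.3%), and at 1 h, 1 lay below (3.36%) and 6 above (10.6%). Against 1 h, 10 chains lay lower at 3 h (33.9% of all genes) and 3 higher (5.1%). Against 3 h, 5 lay lower at 6 h (7.51% of all genes) and 5 higher (30.8%).

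**Figure D3:**
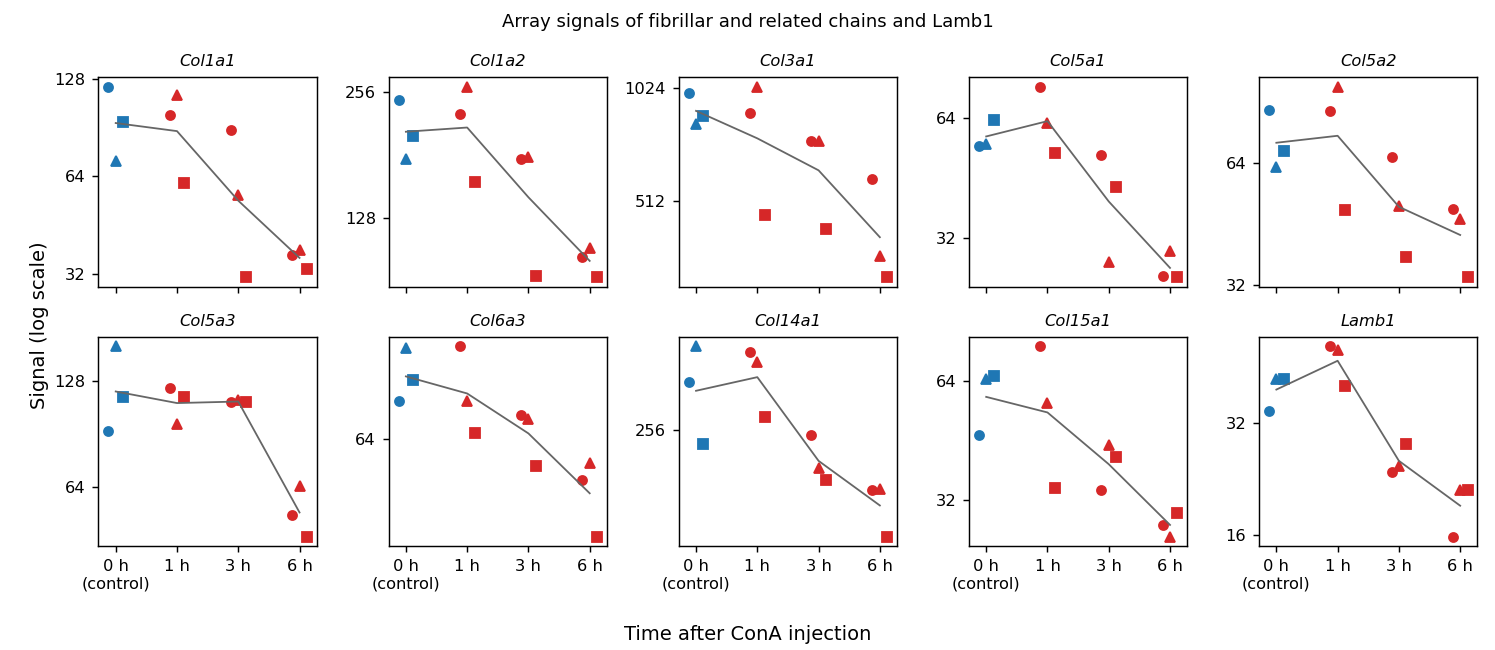
Signal (y axis, log scale) on each array at 0 h, 1 h, 3 h and 6 h (x axis) for 9 of the 10 chains called lower at 6 h, and for Col5a2, which did not pass. Circles, triangles and squares are replicates 1, 2 and 3, blue marks control and red ConA, and the line joins geometric means of 3 arrays. In every panel the 6 h arrays lie below all control arrays.

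Proximal promoters of Col1a2 and Col3a1 are shown because both genes fell and the letters near their starts differ. Capitals mark the letters of GC boxes, CCAAT boxes and TATA boxes on either strand. The GC box was searched as GGGCGG. The TATA box was searched as TATAAA. Both are the 250 bases before the RefSeq start in GRCm38.p6, plus strand, 5′ to 3′, at chr6:4505368-4505617 for Col1a2 and chr1:45311288-45311537 for Col3a1.
Col1a2: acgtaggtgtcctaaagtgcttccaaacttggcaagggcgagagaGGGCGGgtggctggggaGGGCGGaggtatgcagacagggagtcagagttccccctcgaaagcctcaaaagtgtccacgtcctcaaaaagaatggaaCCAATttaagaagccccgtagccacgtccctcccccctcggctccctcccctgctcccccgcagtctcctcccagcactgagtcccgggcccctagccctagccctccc
Col3a1: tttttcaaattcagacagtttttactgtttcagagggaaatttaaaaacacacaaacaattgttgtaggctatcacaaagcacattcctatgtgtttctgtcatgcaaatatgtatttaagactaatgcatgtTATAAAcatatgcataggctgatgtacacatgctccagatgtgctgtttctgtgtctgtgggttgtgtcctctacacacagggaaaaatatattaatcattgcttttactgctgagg
The Col1a2 window held 2 matches to GGGCGG and a match to CCAAT, and that of Col3a1 a match to TATAAA. The search set no position within the 250 bases, so a match describes these letters alone. Of all promoters 32.7% held GGGCGG and 12.4% held TATAAA, against 22 and 5 of the 38 chains with a promoter. Of the 8 fallers with a promoter in the table, 5 held GGGCGG, 4 CCAAT and 1 TATAAA, and of the 3 risers 1 held GGGCGG, 2 CCAAT and 0 TATAAA. The AP-1 letters TGACTCA were in 4.46% of all promoters and in 1 chain, Col6a1. These counts were not tested.

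Chains that decorate or link fibrils were mixed. Col14a1, which binds the surface of fibrils, had 319, 374 and 240 in control, 364, 348 and 272 after 1 h, 251, 216 and 204 after 3 h and 195, 196 and 158 after 6 h, and all 6 h arrays were below the control arrays. Its change at 6 h was -0.75 (SE 0.18, adjusted p = 0.014), with adjusted p = 0.054 in limma without 6 h replicate 3. The call was also lost with the median over probe sets (adjusted p = 0.072) and with the compared groups alone (0.052), and a second bright probe set changed by -0.50 and was not called (adjusted p = 0.083). Col20a1, of the same class, had 46.8, 75.4 and 50.6 in control, 71, 51.8 and 58.6 after 1 h, 55.2, 64.6 and 46.7 after 3 h and 92.2, 115 and 77.1 after 6 h. It was 0.73 higher at 6 h (SE 0.23, adjusted p = 0.037), and 2 of its 3 other probe sets were also called, at 1.24 and 1.41. The F test did not call Col20a1 (adjusted p = 0.059), and its call at 6 h was lost without control replicates 1 or 3, 1 h replicate 3, 3 h replicate 1 or 6 h replicates 1 or 2, at adjusted p of 0.052 to 0.13. The 7 other chains of this class ran from -0.60 to 1.32 at 6 h, and Col19a1, the highest of them, lay just outside the threshold (adjusted p = 0.063).

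Type VI collagen is assembled from an alpha 1, an alpha 2 and a further chain, most often alpha 3. Of the 5 type VI chains, Col6a3 was called, with 78.9, 105 and 88.2 in control, 106, 78.6 and 66.4 after 1 h, 72.9, 71.6 and 55.3 after 3 h and 51.4, 56.2 and 37.7 after 6 h, and fell by 0.91 log2 units (SE 0.22, adjusted p = 0.011). Col6a1 changed by -0.89 (SE 0.49, adjusted p = 0.23) and Col6a2 by -0.37 (SE 0.18, adjusted p = 0.17). A second Col6a2 probe set, with mean signals of 6.68 at 6 h and 62.3 at 0 h, was called lower by 3.16 on the log2 scale, so the 2 probe sets of this gene disagreed in size. The gene's own change therefore has no single value here.

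Types XV and XVIII release endostatin-like fragments and lie beside basement membranes. Col15a1 had 46.7, 64.6 and 65.8 in control, 78.3, 56.3 and 34.3 after 1 h, 33.9, 44 and 41 after 3 h and 27.6, 25.8 and 29.7 after 6 h, and its change at 6 h was -1.08 (SE 0.27, adjusted p = 0.015), lost at an adjusted p of 0.052 without control replicate 2 or control replicate 3. Col18a1, a chain that hepatocytes make in quantity, had 1790, 1800 and 1680 in control, 2180, 1960 and 1900 after 1 h, 1530, 1660 and 1450 after 3 h and 1490, 1710 and 1370 after 6 h. Its 1 h arrays lay above and its 3 h arrays below all control arrays. Between 1 h and 3 h it changed by -0.38 (SE 0.10, adjusted p = 0.028), when the median gene changed by -0.31, and neither other scaling called any chain lower between these times. The call was also lost without 1 h replicates 1 or 2 or 3 h replicates 1 or 3. Its second probe set was called lower at 6 h by 0.74, whereas the brighter one changed by -0.21 (adjusted p = 0.18).

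Laminins are cross-shaped trimers of 1 alpha, 1 beta and 1 gamma chain, and Lamb1 and Lamc1 are the beta 1 and gamma 1 chains of the most widespread forms. Of the 10 laminin chains, Lamb1 alone was lower at 6 h, a share near the 12.7% lower over all genes. No chain was higher by limma (0 also at an unadjusted p under 0.05), when 15.4% of all genes were. The median change of the laminin chains was -0.39. Lamb1 had 34.5, 41.9 and 42.1 in control, 51.4, 50.3 and 40.2 after 1 h, 23.6, 24.5 and 28 after 3 h and 15.8, 21.1 and 21.1 after 6 h. All arrays of 3 h and 6 h lay below the others. The change was -0.64 at 3 h (SE 0.15, adjusted p = 0.019) and -1.04 at 6 h (SE 0.15, adjusted p = 9.0e-04), and between 1 h and 3 h it was -0.89 (SE 0.15, adjusted p = 0.0045). Relative to the median gene the change at 3 h was -0.42.

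The Lamb1 result rested on 1 probe set. The 3 dimmer probe sets of Lamb1 were not called and changed by 0.16, 0.53 and 0.00 at 6 h, and with the median over probe sets the change at 6 h was 0.34 (adjusted p = 0.70). The 3 h call was also lost with both other scalings, at adjusted p = 0.14 in each, and without control replicates 2 or 3 or 3 h replicates 1 or 2, at 0.054 to 0.064.

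Other laminin chains did not pass. Lamc1 had 69.5, 82.7 and 47.8 in control, 61.7, 64.1 and 50 after 1 h, 51.5, 21.4 and 34.8 after 3 h and 56.3, 41.8 and 43.1 after 6 h, with a change of -0.95 at 3 h (SE 0.31, adjusted p = 0.063) and -0.48 at 6 h (adjusted p = 0.32). Lama5, the alpha chain of mature basement membranes, had 160, 175 and 112 at 6 h, against 138, 141 and 72.9 at 0 h, a difference of 0.38 with a 95% interval from -0.31 to 1.07. Lama4, the alpha chain of vessel walls, changed by -0.48 at 6 h (adjusted p = 0.75) and Lamb2 by -0.97 (SE 0.49, adjusted p = 0.19). A dimmer Lama4 probe set, at the floor on 7 arrays, was called higher at 6 h by 1.11. Lama1, Lama2, Lama3, Lamb3 and Lamc3 ran from -0.98 to 0.65 at 6 h.

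The 4 transmembrane chains, the 3 short-chain network chains and Col7a1 and Col26a1 gave no call at 6 h. The transmembrane chains all had positive changes at 6 h, from 0.37 for Col13a1 to 1.74 for Col25a1 (SE 0.80, adjusted p = 0.15). Col17a1 was at the floor on 8 of the 12 arrays, Col23a1 on 5 and Col25a1 on 2. Other probe sets changed by -0.53 and 0.39 for Col23a1 and by 0.99 for Col25a1 at 6 h, and were not called. Col13a1 at 3 h, 0.60 higher, passed with the other scalings. Col7a1, the chain of anchoring fibrils, had 11.6, 8.99 and 13.5 in control, 15.7, 14.6 and 24.8 after 1 h, 5.51, 18.6 and 12.4 after 3 h and 24.9, 18.7 and 25.5 after 6 h, a change of 1.03 (SE 0.41, adjusted p = 0.094). Its 6 h arrays lay above all control arrays without passing the test.

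Between successive times, 2 chains were higher at 3 h than at 1 h, Col4a1 and Col27a1 (3.08% of all genes were), and 2 were lower, Col18a1 and Lamb1 (19.9% of all genes were). Between 3 h and 6 h, 2 were higher, Col4a2 and Col20a1 (18.8% of all genes were), and 2 were lower, Col4a3 and Col5a3 (3.83% of all genes were). With quantile normalization or centring, none was higher from 3 h to 6 h and 9 were lower, Col1a2, Col4a3, Col5a1, Col5a3, Col6a3, Col14a1, Col15a1 and Lamb1 in both settings, with Col6a2 or Col18a1 as the other. All genes went from this imbalance to near balance with quantile normalization, at 5.54% higher and 5.4% lower for 3 h against 1 h and 9.33% higher and 10.3% lower for 6 h against 3 h, and to 6.63% higher and 12.5% lower for the last contrast with centring. These contrasts share arrays with those against 0 h. Single arrays moved these counts. Chains lower at 3 h than at 1 h numbered 8 without 1 h replicate 3, 4 without 3 h replicate 1 or 6 h replicate 2, and 1 without 1 h replicate 2 or 3 h replicate 3. Chains higher numbered 4 without 1 h replicate 3 and 1 without 1 h replicates 1 or 2 or 3 h replicate 2. From 3 h to 6 h, 1 chain was higher without 3 h replicates 1 or 3 or 6 h replicates 1 or 2, and 1 was lower without 6 h replicates 2 or 3.

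Probe sets of the same gene were compared across all members. Of the 52, 33 had more than 1 probe set, with 49 probe sets besides the chosen ones. At 6 h, 17 of these belonged to called chains, and 7 had the same call, 10 were not called and none had the opposite call. A call was made in 3 other probe sets whose chosen partner was not called, in Col18a1, Col6a2 and Lama4.

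**Figure D4:**
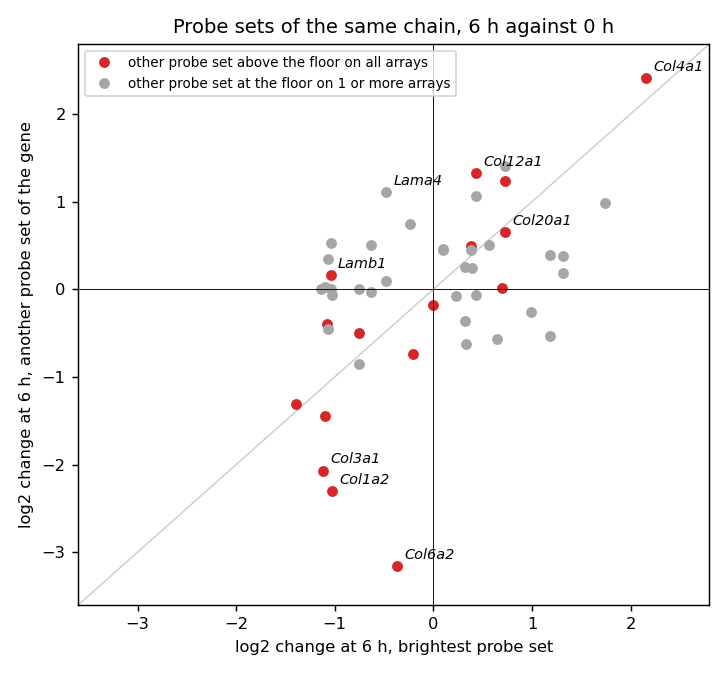
Log2 change at 6 h against 0 h of each of the 49 other probe sets (y axis) plotted against the brightest probe set of the same chain (x axis), with the diagonal in grey. Red points were above the floor on all 12 arrays and grey points were at the floor on 1 or more. The Col4a1 point lies near the diagonal, while the labelled points of Col1a2, Col3a1 and Col6a2 lie far below it. Col1a2 has a further point above the diagonal, at -0.07.

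Collagen chains are modified, folded and trimmed by a set of dedicated proteins, and 26 of 29 genes of such a list were measured. At 6 h, 4 were higher, 3 were lower and 19 did not pass, with a median of 0.09. The shares of this list lay near the 15.4% higher and 12.7% lower over all genes. P3h1, a collagen prolyl 3-hydroxylase, was 1.69 higher (SE 0.38, adjusted p = 0.0084) and Creb3l1, a transcription factor of the secretory pathway that acts on collagen genes in bone, was 1.85 higher (SE 0.48, adjusted p = 0.017). Plod3, a lysyl hydroxylase, was 0.94 higher (SE 0.10, adjusted p = 1.5e-04). Pcolce, the enhancer of procollagen C-proteinase, fell by 1.75 log2 units (SE 0.57, adjusted p = 0.048).

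Of 18 partners of the chains in the matrix, 6 were lower (12.7% of all genes were), 1 was higher (15.4% of all genes were) and 11 did not pass at 6 h. Their median was -0.75. Tnxb, a tenascin of the collagen network, was at the floor on all 3 arrays at 6 h and fell by at least 2.91 log2 units (adjusted p = 0.0016). Fbln5, of elastic fibers, fell by 2.07 log2 units (SE 0.28, adjusted p = 5.1e-04), Hspg2, the core protein perlecan of basement membranes, by 1.37 (SE 0.31, adjusted p = 0.0094) and Pxdn, which cross-links collagen IV, by 1.22 (SE 0.16, adjusted p = 5.1e-04). Nidogens Nid1 and Nid2, which bridge laminin and collagen IV, were lower at 3 h, at -0.64 (adjusted p = 0.044) and -1.70 (adjusted p = 0.034), and did not pass at 6 h. Of the partners, 3 were lower at 3 h (14.7% of all genes were). With either of the other scalings 1 was, against 9.03% of all genes with quantile normalization and 6.88% with centring. Fn1, the fibronectin that hepatocytes secrete, was 0.50 higher at 6 h (SE 0.09, adjusted p = 0.0033).

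Among collagen and laminin receptors, 2 of 18 measured genes were higher, 3 were lower and 13 did not pass at 6 h, shares near the 15.4% higher and 12.7% lower over all genes. Ddr1 and Ddr2 are receptor tyrosine kinases for collagen. Ddr1 had 40.6, 29 and 42.4 in control, 48.3, 27.4 and 17.4 after 1 h, 43.9, 46.4 and 32 after 3 h and 266, 204 and 173 after 6 h, and was 2.52 higher at 6 h (SE 0.35, adjusted p = 6.2e-04), whereas Ddr2 changed by -0.61 (SE 0.19, adjusted p = 0.039). The heparan sulfate proteoglycan Sdc4 was 0.61 higher (adjusted p = 0.0084), and the laminin receptor Dag1 fell by 0.52 log2 units (adjusted p = 0.044).

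Transforming growth factor beta is the best known inducer of fibrillar collagen. Of 17 measured genes of its pathway and of related profibrotic signals, 3 were higher, 4 were lower and 10 did not pass at 6 h. Over all genes 15.4% were higher and 12.7% lower at this time. At 3 h 1 was higher and 7 were lower, when 5.15% of all genes were higher and 14.7% lower. With either of the other scalings 3 were higher and 3 lower at 3 h. Ccn2, a matricellular target of the pathway, had 259, 287 and 189 at 1 h, against 71.5, 76.4 and 34.6 at 0 h, and was 2.07 higher (adjusted p = 0.013). It was back among the control arrays at 3 h and 6 h. At 6 h the inhibitory Smad6 changed by -1.55 (adjusted p = 0.0051), the receptors Tgfbr2 and Tgfbr3 by -1.41 (adjusted p = 0.0045) and -1.39 (adjusted p = 6.2e-04), the repressor Skil by 1.54 (adjusted p = 2.9e-04) and the growth factor Pdgfb by 1.40 (adjusted p = 0.045).

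Hepatocyte markers were bright on all arrays, as the whole-liver label says. Of the cell types that can make these chains, stellate and sinusoidal endothelial cells had many markers called over the same times. The portal fibroblast, cholangiocyte and hepatocyte lists had few calls. The stellate list had 15 measured markers. At 6 h 8 of them were lower and none was higher by limma (0 also at an unadjusted p under 0.05), with a median of -1.30. Over all genes 12.7% were lower and 15.4% higher at 6 h. The summed signal of the list was 2340 to 3350 in control, 2430 to 3220 after 1 h, 1570 to 1890 after 3 h and 1480 to 1560 after 6 h. Lrat, the retinol-esterifying enzyme of stellate cells, fell by 3.43 on the log2 scale at 6 h (SE 0.58, adjusted p = 0.0018), Tcf21 by 2.50 (adjusted p = 4.0e-04), Cygb by 2.47 (adjusted p = 5.7e-04) and Colec11 by 2.35 (adjusted p = 5.1e-05). These 4 were lower at 3 h as well. Of the 15 markers, 7 were lower and 8 did not pass at 3 h, with a median of -0.94, when 14.7% of all genes were lower. No fibrillar chain was called at 3 h, but 9 of 11 had a negative change (6 with either other scaling). An order in time between the markers and the chains was not tested. In whole liver, fewer cells of a type and less RNA per cell cannot be told apart. The part of the stellate cell markers in the fall of the fibrillar chains was not tested.

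Of 12 sinusoidal endothelial cell markers, 6 were lower and 2 were higher at 6 h, with a median of -0.77. Over all genes 12.7% were lower and 15.4% higher at 6 h, which stands beside the counts of this list and of those below. Summed signals were 1750 to 3520 in control, 3050 to 3530 after 1 h, 1810 to 1990 after 3 h and 1870 to 2040 after 6 h. Among the lower markers, Gpr182 fell by 2.45 log2 units (adjusted p = 1.5e-04) and Kdr, the receptor of vascular endothelial growth factor, by 2.3 (adjusted p = 1.4e-04). The 2 higher markers moved the other way, a share near the 15.4% higher over all genes. All 8 measured neutrophil markers were higher at 6 h, and their summed signals were 89.9 to 133 in control, 844 to 1190 after 1 h, 1520 to 2170 after 3 h and 1670 to 2590 after 6 h. Of 9 portal fibroblast and mesothelial markers, Wt1 was higher by 1.64 (adjusted p = 0.032), none was lower by limma (0 also at an unadjusted p under 0.05), and Mfap4 was at the floor on all 12 arrays. Of 8 measured cholangiocyte markers, Sox9 was higher by 1.47 (adjusted p = 0.0045) and Krt23 fell by 3.20 log2 units (adjusted p = 0.0021), and 7 measured hepatocyte markers had 1 gene higher, Hnf4a. Summed hepatocyte signals were 53200 to 57900 in control, 56100 to 59300 after 1 h, 50800 to 51500 after 3 h and 52800 to 58000 after 6 h. The part of all these markers in the results was not tested.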

How the data were processed

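Biotin-labelled liver RNA was hybridised to 12 Affymetrix arrays, 3 at each of 0, 1, 3 and 6 h. The deposited table held linear intensity values of 45101 probe sets, as made by the authors. The submitters' processing notes name MAS5 version 5.0, whereas the methods name RMA. The values had no common distribution and were not logged, so MAS5 signals are the likelier reading. They were not rescaled.

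The floor before log2 was 3.04, the 20th percentile. After 64 control probe sets were left out, 34945 of 45037 carried 1 symbol, 932 several and 9160 none. Symbols of 34741 were updated through the Entrez ID, and 204 were kept. The brightest probe set by mean log2 stood for each of 18193 genes. Comparisons were made by limma 3.58.1 (R 4.3.3), whose single fit held 4 group means with moderated variances, and with an F test over the 3 contrasts with 0 h in place of the random variance model. The threshold was a Benjamini-Hochberg adjusted p under 0.05. The number of arrays limits the precision. Intervals are 95% intervals with 9.25 degrees of freedom.

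Named chains were those past the F test, the main liver matrix chains, and those nearest the threshold, with others named beside a count. For the lists the plan was to name the 4 largest called changes at 6 h. It was not kept throughout, since more TGF-beta genes, fewer sinusoidal endothelial markers and no neutrophil marker were named. Members, lists and tests were chosen with earlier results of these data known. Promoters and their coordinates came from RefSeq (GRCm38.p6), for 38 of the 52 chains. Col1a1, Col4a3, Col5a2 and Col14a1 were among those not matched. The coordinates are not those of the arrays' design. The labels' replicate numbers were not taken to pair arrays, since the residuals of 18 same-numbered pairs correlated at -0.005 to 0.041 and 36 other pairs at -0.055 to 0.034. Alternatives were 2 scalings, 2 pseudocounts (1 and 16), a filter at the median level, all probe sets, another choice of probe set and their median, an intensity trend, a fit of the compared groups alone, a replicate block, a 2-fold minimum and leaving out each array. The fit was tested on simulated data. Genes with no probe set of a single symbol were not analysed here.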

Additional observations from a re-analysis of the deposited data

Results flagged for a closer look

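Col4a3 went opposite ways early and late. It was 2.02 higher at 1 h than at 0 h on the log2 scale, changed by -0.44 between 1 h and 3 h (limma adjusted p = 0.38), and between 3 h and 6 h changed by -1.24 (SE 0.33, limma adjusted p = 0.024). Its signals never exceeded 16.8, and 3 of the 12 arrays were at the floor.

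The dimmer probe set of Lama4, which no comparison above used for the gene, was 1.11 higher at 6 h than at 0 h (SE 0.31, limma adjusted p = 0.034 over all probe sets), with mean signals of 6.95 at 6 h and 1.30 at 0 h. The brighter probe set changed by -0.48 and was not called.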

How the results depend on the processing

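Of 404 recomputations of the 17 calls against 0 h, 355 kept the call, 48 lost it and 1 turned. Col4a1 at 3 h and 6 h and Col5a1 and Col5a3 at 6 h kept it in all 24, and Lamb1 at 6 h turned to 0.34 with the median over probe sets. Calls near the threshold depended on 1 array, as given beside each chain, and the causes were not tested.

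The count of 10 chains lower at 6 h stayed within 1.5 times in every setting that kept all arrays, with 13 after quantile normalization and 13 after centring. The 1 chain higher at 1 h became 0 with log2(signal + 1), with the compared groups alone and with the replicate block. The filter to genes above the median tested only 22 chains, and all counts given for this filter are of these 22. Col4a3 and Lamb1 were left out before that fit, so the filter could not call them at any time. Its 0 chains higher at 1 h and its lack of Col4a3 at 3 h are therefore not calls that failed. Chains higher at 3 h numbered 4 with both scalings and 1 with genes above the median or the median over probe sets. Chains lower at 3 h numbered 0 with both scalings, the median over probe sets and a 2-fold minimum, 2 with genes above the median and the compared groups alone, and 3 with log2(signal + 16) and the replicate block. Chains higher at 6 h numbered 5 with the median over probe sets and 1 with a 2-fold minimum. Between 1 h and 3 h, chains higher numbered 1 with the median over probe sets and with a 2-fold minimum, and chains lower numbered 0 with both scalings and a 2-fold minimum, 1 with log2(signal + 1) and the compared groups alone, 5 with log2(signal + 16) and genes above the median, and 4 with the replicate block. Between 3 h and 6 h, chains higher numbered 0 with both scalings and a 2-fold minimum and 1 with the median over probe sets, and chains lower numbered 9 with both scalings and 1 with log2(signal + 1), the median over probe sets and the replicate block.

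Leaving out each array in turn gave 6 to 12 chains lower and 2 to 4 higher at 6 h, 0 to 2 lower and 2 to 3 higher at 3 h, 0 to 1 lower and 0 to 1 higher at 1 h, 1 to 8 lower and 1 to 4 higher at 3 h against 1 h, 1 to 2 lower and 1 to 3 higher at 6 h against 3 h, and 8 to 18 past the F test. Chains near the floor had the widest errors, and 23 of 52 had an array there.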
